A study of Homo sapiens with 4 samples.

Results

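This section describes the transcript levels of 10 genes of growth factor receptor signalling in MHCC97H, an established highly metastatic line of human liver cancer cells, with and without knockdown of HNRNPM. The genes were taken by name from this signalling family, with earlier results of these data known, and all 10 were found among the 39306 gene names of the tables. They are the receptors MET, EGFR, ERBB2 and ERBB3, the ligands AREG, EREG, HBEGF, TGFA and NRG1, and the feedback inhibitor ERRFI1. RNA was measured in 4 libraries. The 2 control libraries came from wild-type MHCC97H cells, and the 2 knockdown libraries from MHCC97H cells with a short hairpin (sh-HNRNPM) against HNRNPM, an RNA-binding splicing regulator. No control hairpin is named in the labels of the wild-type cells. The headings of the deposited tables carry NC for the wild-type libraries and sh1 and sh2 for the knockdown libraries. Neither they nor the labels say what NC stands for, or whether sh1 and sh2 are different hairpins. They also do not say whether replicates were separate cultures, so the spread behind each p-value may be technical.

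Receptor tyrosine kinases of the cell surface bind growth factors, phosphorylate each other and recruit adaptors that switch on the RAS-ERK and PI3K-AKT cascades. EGFR, ERBB2 and ERBB3 act in pairs. ERBB2 has no known ligand of its own, and ERBB3 has little kinase activity and signals mainly by recruiting PI3K. MET is the receptor of hepatocyte growth factor (HGF), which is made mostly by stromal cells, and it drives growth, scattering and invasion of liver cells. ERRFI1 (also called MIG6) is induced by EGFR signalling and binds the EGFR kinase domain to shut it off.

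Values are RPKM, the reads of a gene scaled to its exon length and to the library's assigned reads. The length counts all annotated exons of a gene, used in these cells or not. Levels of different genes can therefore be compared only roughly. Assigned reads numbered 11498663 to 19659106 per library. The hairpin's target HNRNPM was at 51.3 and 51.6 RPKM in the 2 wild-type libraries and at 21.8 and 20.4 RPKM in the 2 knockdown libraries, which is 41.0% of the wild-type mean (limma adjusted p = 0.00270). Of 20221 genes tested, 24.9% passed the test between the groups (limma, Benjamini-Hochberg adjusted p under 0.05). Calls in the higher direction were 11.1% of tested genes and calls in the lower direction 13.8%. Without the scaling between libraries described under processing, 55.5% of the called genes were higher in knockdown cells in place of 44.5%. The epithelial keratins KRT8 and KRT18 were at 278 to 672 RPKM in every library. All 11 liver and epithelial markers in the tables summed to 918 and 823 RPKM in wild-type and to 1112 and 1155 RPKM in knockdown libraries. The secreted liver proteins among them were low and differed in direction. ALB was at 5.35 and 6.28 RPKM in wild-type and 1.75 and 1.78 RPKM in knockdown libraries. TF was at 10.5 and 11.3 RPKM in knockdown libraries, above both wild-type libraries, and SERPINA1 overlapped between the groups. AFP was at most 0.436 RPKM. Summed levels of 7 fibroblast markers were 1.31 and 1.52 RPKM in wild-type against 3.76 and 3.59 RPKM in knockdown libraries, mostly LUM. The 6 endothelial markers, mostly PECAM1, summed to 9.62 and 10.3 RPKM in wild-type and to 6.91 and 7.37 RPKM in knockdown libraries. The 4 lymphocyte markers, mostly CD79A, summed to 4.91 and 5.55 against 2.01 and 2.60 RPKM. The 6 macrophage markers, mostly CD68, summed to 47.5 and 58.7 against 62.0 and 60.6 RPKM. CD68 shares 81.7% of its exon length with RP11-186B7.4 on the same strand, a gene read at 137 to 158 RPKM, so its value is uncertain. PTPRC, the pan-leukocyte marker, was at 0 in 3 libraries and at 0.0376 RPKM in knockdown replicate 1. Every deposited gene name had reads in some library, so a marker without any reads would not appear. The liver marker GPC3, the fibroblast marker PDGFRA and the lymphocyte markers CD3E and CD2 had no deposited value. The part of these differences in the results below was not tested, and in bulk RNA fewer cells of a type and less RNA per cell cannot be told apart.

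Among the receptors, MET stood far above the others, ERBB3 fell after HNRNPM knockdown, and EGFR was at nearly the same level in all 4 libraries. In the whole group of 10, ERBB3 was lower, AREG and ERRFI1 were higher, and 7 did not pass. With 3 of 10 called against 24.9% of all tested genes, the share is near the background. The RPKM of the groups did not overlap in 6 of the 10 (4 lower and 2 higher in knockdown cells), against 67.6% of all tested genes. The median log2 fold change of the 10 was -0.16, beside -0.03 for all tested genes.

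**Figure D1:**
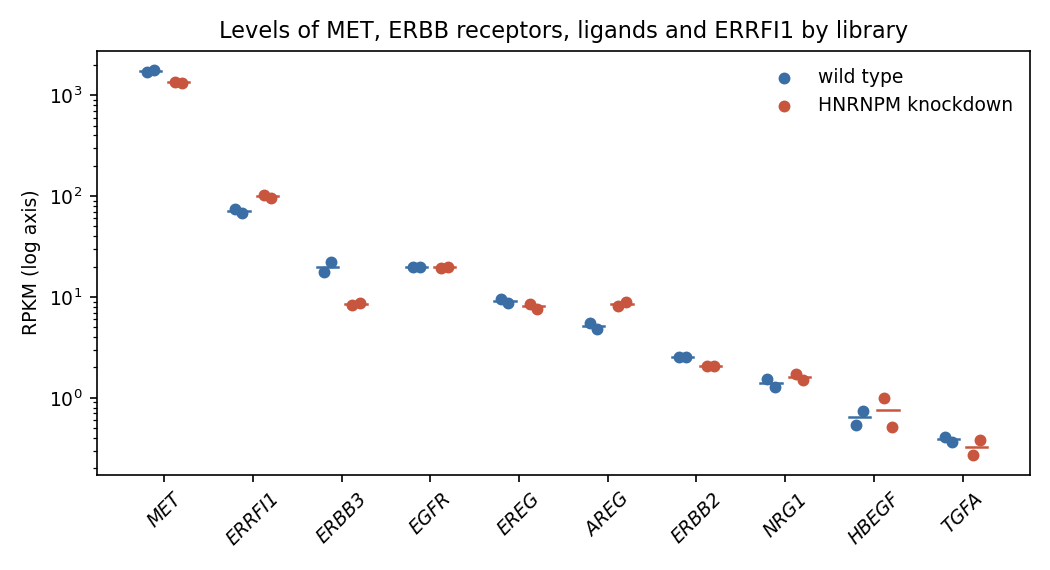
RPKM of the 10 genes on a log axis, ordered by their wild-type mean. Points are single libraries (2 per group) and bars are group means. MET lies at 1332 to 1776 RPKM in all 4 libraries, above every other gene shown, and ERBB3 falls from the level of EGFR to that of AREG and EREG.

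MET (GRCh38 chromosome 7, positions 116672390 to 116798386, plus strand, 7039 bp of annotated exons) was at 1695 and 1776 RPKM in wild-type cells and at 1357 and 1332 RPKM in knockdown cells. Both knockdown libraries were below both wild-type libraries. Among 16632 protein-coding genes of the nuclear genome, MET ranked 3 in each wild-type library and 5 in each knockdown library. It took 1.19% and 1.25% of all assigned reads in wild-type and 0.955% and 0.938% in knockdown libraries. The means were 1735 ± 57.6 and 1345 ± 18.0 RPKM (SD, n = 2 each), so knockdown cells held 77.5% of the wild-type level. The log2 fold change was -0.43 ± 0.13 (limma's SE) and narrowly missed the threshold (limma adjusted p = 0.0576), with a 95% interval of the fold from 0.597 to 0.921. Over 14 other settings the estimate ran from -0.47 to -0.37 and the adjusted p from 8.71e-05 to 0.327. It passed in 4 of them, including the fit without wild-type replicate 1 (adjusted p = 0.0364) and limma-voom, a weighted fit on read counts (8.71e-05). No exon of MET overlaps another gene of the tables.

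The genes around MET were looked at after its level had been seen. Of 6 other protein-coding genes starting within 1 Mb of it, CAV1, CAV2 and TES were the most abundant, and all start before MET. CAV1, which encodes the caveola protein caveolin-1 and starts 148 kb away, was at 627 and 586 RPKM in wild-type and at 1048 and 1024 RPKM in knockdown cells. CAV1 rose (log2 fold change 0.71 ± 0.10, limma adjusted p = 0.00902), and its fold change had the opposite sign to that of MET. CAV1 did not pass without knockdown replicate 1 or 2 (adjusted p = 0.105 and 0.0959). TES, a focal adhesion gene, rose from 122 ± 2.34 to 152 ± 5.94 RPKM (limma adjusted p = 0.0485), and passed in none of the 4 fits that left out 1 library (0.0649 to 0.373). CAV2 was at 193 to 263 RPKM across the 4 libraries and did not pass (log2 fold change 0.24 ± 0.10, limma adjusted p = 0.141). Beyond the MET start, CAPZA2 (an actin capping subunit) was at 13.5 to 20.0 RPKM and ST7 at 0.934 to 1.18 RPKM, and neither passed. TFEC, which starts before MET, was at 0.240 and 0.330 RPKM in wild-type and 0.173 and 0.131 RPKM in knockdown cells. It was lower, as MET was, and did not pass (log2 fold change -0.65 ± 0.23, limma adjusted p = 0.0921). The median wild-type level of the 6 neighbours was 68.1 RPKM, beside 2.66 RPKM for all protein-coding genes. Their wild-type means ran from 0.285 to 606 RPKM, so that median describes them only loosely.

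**Figure D2:**
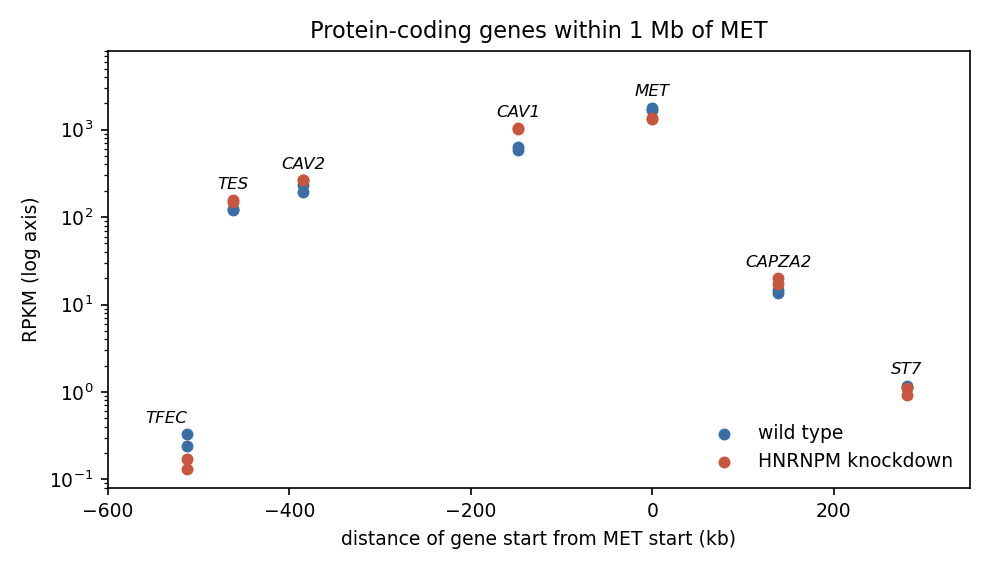
RPKM (log axis) of MET and the 6 other protein-coding genes that start within 1 Mb of it, by the distance of their start from the MET start in kb. Points are single libraries. CAV1 at 148 kb before MET is the next highest, at 586 to 1048 RPKM, and its 2 groups lie in the opposite order to those of MET.

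ERBB3 (chromosome 12, positions 56079857 to 56103505, plus strand) was at 17.7 and 22.2 RPKM in wild-type cells and at 8.36 and 8.73 RPKM in knockdown cells. The groups were separated by more than the spread within either of them, although the 2 wild-type libraries differed more from each other than the 2 knockdown libraries did. The mean fell from 20.0 ± 3.21 to 8.55 ± 0.260 RPKM (SD, n = 2 each), or 42.8% of the wild-type level. The difference passed (limma log2 fold change -1.27 ± 0.13, adjusted p = 0.00501), and the fold had a 95% interval from 0.333 to 0.517. ERBB3 passed under all 14 other settings, with estimates from -1.44 to -1.10. It shares 31 bp of exon with RP11-603J24.9 on the same strand, a gene read at 320 RPKM in wild-type replicate 1, and that stretch is 0.358% of its exon length.

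EGFR (chromosome 7, positions 55019021 to 55211628, plus strand) was at 19.8 and 20.0 RPKM in wild-type cells and at 19.3 and 20.0 RPKM in knockdown cells. The groups overlapped as deposited. After scaling between libraries both knockdown values lay below both wild-type values. The difference did not pass (limma log2 fold change -0.08 ± 0.07, adjusted p = 0.429). A fold anywhere from 0.841 to 1.06 lies within its 95% interval. ERBB2 (chromosome 17, positions 39687914 to 39730426, plus strand) was low, at 2.53 and 2.52 RPKM in wild-type and 2.08 and 2.06 RPKM in knockdown cells. Both knockdown values of ERBB2 were below both wild-type values, but the difference did not pass (log2 fold change -0.34 ± 0.12, limma adjusted p = 0.0952). It passed only with limma-voom (adjusted p = 0.0110). ERBB2 shares 571 bp of exon with MIEN1 and 194 bp with PGAP3, and EGFR shares 186 bp with EGFR-AS1, all on the opposite strand. Whether counting used the strand is not known here, so these values may hold reads of the neighbours.

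Ratios within a library do not depend on scaling between libraries. The RPKM ratio of ERBB3 to EGFR stood at 0.895 and 1.11 in wild-type and at 0.433 and 0.437 in knockdown libraries. EGFR made up 49.4% and 44.6% of the summed RPKM of the 3 ERBB receptors in wild-type and 64.9% in both knockdown libraries. MET per EGFR was 85.7 and 89.0 in wild-type against 70.3 and 66.7 in knockdown libraries. None of these ratios overlapped between groups, and with 2 libraries against 2 a two-sided exact permutation test cannot go below p = 0.333, which each of them reached. In the order of levels, ERBB3 and EGFR could not be separated in wild-type cells, where their ranges overlapped. In knockdown cells EGFR was above ERBB3, and the ranges of ERBB3 and AREG and of AREG and EREG overlapped. All other neighbours in either order had separate ranges. ERBB4, and the ligand gene NRG3, had no deposited value.

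**Figure D3:**
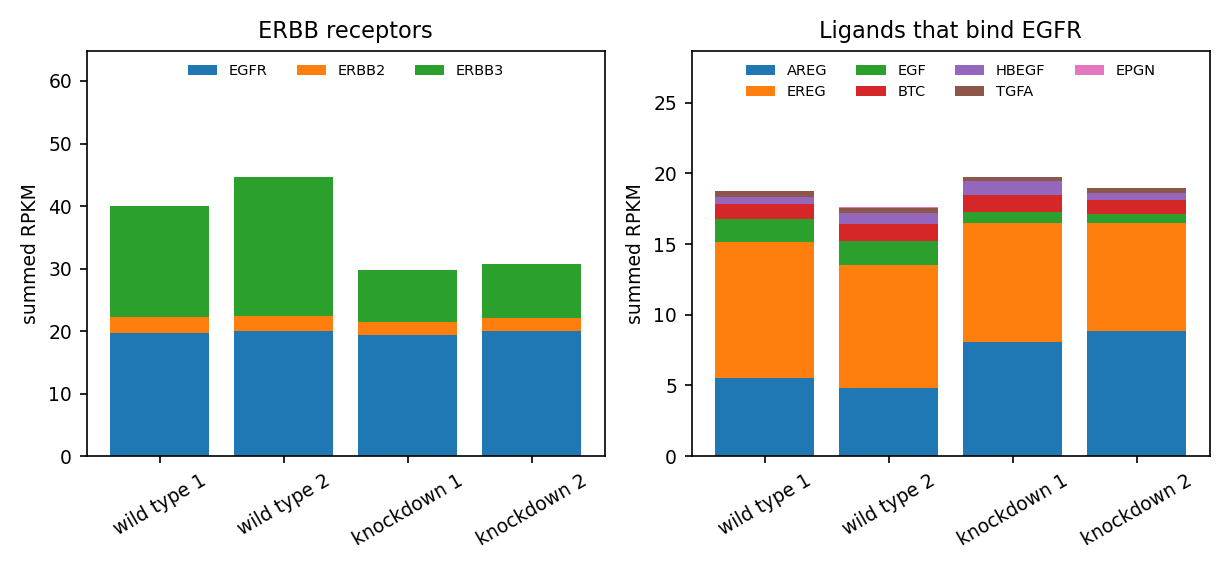
Summed RPKM by library of the 3 ERBB receptors (left) and of 7 ligands that bind EGFR (right), stacked by gene. The ERBB3 segment shrinks from 17.7 and 22.2 RPKM in wild-type to 8.36 and 8.73 RPKM in knockdown libraries, and the AREG segment grows from 5.53 and 4.85 to 8.07 and 8.87 RPKM.

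Among the ligands, AREG rose and the others did not pass. Amphiregulin (AREG) and epiregulin (EREG) are made as membrane-bound precursors and cut free by metalloproteases. Their genes lie side by side on chromosome 4, with starts 80.0 kb apart on the plus strand. The promoters of both are shown because the 2 neighbours differed in direction, together with that of ERRFI1, which rose as AREG did. Each run is the 250 bases before the RefSeq start (GRCh38.p14), at chr4:74444886-74445135 (plus strand) for AREG, chr4:74364895-74365144 (plus strand) for EREG and chr1:8026310-8026559 (minus strand) for ERRFI1. Capitals mark matches, on either strand, to any of 5 motifs. TGACGTCA is the cyclic AMP response element and TATAAA a form of the TATA box. The motif TGANTCA is bound by AP-1 factors. The motif CCGGAA is a strict form of the site bound by ETS factors, longer than their GGAA core. Shorter GGAA runs, which the AREG and EREG windows also hold, were not marked. The last is the CArG box of serum response factor. None overlapped another in these windows.
AREG: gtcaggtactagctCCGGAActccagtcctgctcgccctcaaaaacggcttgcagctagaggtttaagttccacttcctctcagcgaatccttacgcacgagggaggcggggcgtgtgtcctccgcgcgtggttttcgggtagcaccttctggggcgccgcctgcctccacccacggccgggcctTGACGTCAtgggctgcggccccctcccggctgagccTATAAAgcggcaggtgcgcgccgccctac
EREG: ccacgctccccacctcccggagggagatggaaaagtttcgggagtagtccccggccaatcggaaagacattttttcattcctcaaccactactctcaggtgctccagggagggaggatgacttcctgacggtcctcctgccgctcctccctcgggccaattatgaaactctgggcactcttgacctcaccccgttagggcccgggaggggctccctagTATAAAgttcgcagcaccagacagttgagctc
ERRFI1: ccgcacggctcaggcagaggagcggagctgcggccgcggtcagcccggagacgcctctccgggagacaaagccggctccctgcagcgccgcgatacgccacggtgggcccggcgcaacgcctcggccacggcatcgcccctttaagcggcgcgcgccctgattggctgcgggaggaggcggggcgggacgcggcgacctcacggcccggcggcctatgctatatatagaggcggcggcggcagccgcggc

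The AREG window held a full cyclic AMP response element 65 bases before the start, a TATA box at 29 and the strict ETS motif at 236 bases before it. The EREG window held a TATA box 32 bases before the start and no other match, and the ERRFI1 window held no exact match to any of the 5 motifs. Near its end the ERRFI1 window holds tatatata, which is close to a TATA box but differs from TATAAA. Looser forms of the motifs were not searched. Of 35116 promoter windows of the same length, 1.65% held the cyclic AMP response element, 6.57% the AP-1 motif and 10.7% the TATA box. The strict ETS motif was in 14.5% and a CArG box in 1.16%. These matches are letters in a window, not measured binding.

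AREG (positions 74445134 to 74455009) was at 5.53 and 4.85 RPKM in wild-type cells and at 8.07 and 8.87 RPKM in knockdown cells. Both knockdown libraries were above both wild-type libraries. The mean rose from 5.19 ± 0.485 to 8.47 ± 0.563 RPKM (SD, n = 2 each), and the difference passed (limma log2 fold change 0.63 ± 0.11, adjusted p = 0.0139; 95% interval of the fold 1.29 to 1.87). AREG was read 157 to 169 times per library, which limits its precision. It did not pass without wild-type replicate 2 (adjusted p = 0.0519), knockdown replicate 1 (0.0520) or knockdown replicate 2 (0.0817), with estimates from 0.54 to 0.69 on the log2 scale.

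EREG (positions 74365143 to 74388751) was at 9.64 and 8.66 RPKM in wild-type and 8.45 and 7.65 RPKM in knockdown cells. Its groups lay close together without overlapping. The difference did not pass (limma log2 fold change -0.24 ± 0.09, adjusted p = 0.113), except with limma-voom (adjusted p = 0.0362). The ratio of AREG to EREG was 0.574 and 0.560 in wild-type libraries and 0.955 and 1.16 in knockdown libraries. EREG thus had the higher RPKM of the pair in wild-type cells, and in knockdown cells their order differed between the 2 libraries. The ratios did not overlap between groups (two-sided exact permutation test, p = 0.333, the smallest this design allows).

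The remaining ligands were scarce. Heparin-binding EGF-like growth factor (HBEGF, chromosome 5, positions 140332843 to 140346631, minus strand) was at 0.543 and 0.742 RPKM in wild-type and at 0.991 and 0.519 RPKM in knockdown cells. The 2 knockdown libraries of HBEGF lay on either side of the wild-type libraries. With 18 to 44 reads per library, the difference did not pass (log2 fold change 0.10 ± 0.32, limma adjusted p = 0.833). Transforming growth factor alpha (TGFA, chromosome 2, positions 70447280 to 70554193, minus strand) was at 0.407 and 0.369 RPKM in wild-type and at 0.270 and 0.386 RPKM in knockdown cells, from 17 to 37 reads. Its groups overlapped as deposited but not after scaling between libraries, where knockdown values were lower. The difference did not pass (log2 fold change -0.25 ± 0.22, limma adjusted p = 0.437). The 95% intervals of the fold, 0.623 to 1.86 for HBEGF and 0.574 to 1.23 for TGFA, were wide.

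Neuregulin 1 (NRG1), the ligand of ERBB3 and ERBB4, lies on chromosome 8 (positions 31639386 to 32767959, plus strand). It was at 1.54 and 1.28 RPKM in wild-type and at 1.71 and 1.49 RPKM in knockdown cells. The groups overlapped, and the difference did not pass (log2 fold change 0.11 ± 0.16, limma adjusted p = 0.644). The RPKM ratio of NRG1 to ERBB3 was 0.0869 and 0.0578 in wild-type and 0.204 and 0.171 in knockdown libraries. The groups were separate in this ratio although NRG1 itself did not pass.

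Across the 7 ligands of EGFR (AREG, EREG, HBEGF, TGFA, EGF, BTC and EPGN), the summed level was 18.8 and 17.6 RPKM in wild-type and 19.8 and 19.0 RPKM in knockdown libraries. AREG and EREG together made up 76.7% to 87.0% of that sum in the 4 libraries. The share of AREG was 29.4% and 27.5% in wild-type against 40.8% and 46.7% in knockdown libraries. The share of EREG was 51.3% and 49.1% against 42.7% and 40.3%.

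ERRFI1 (chromosome 1, positions 8004404 to 8026308, minus strand) was the most abundant of the 10 after MET. It was at 75.0 and 68.3 RPKM in wild-type cells and at 101.8 and 96.8 RPKM in knockdown cells, and the groups did not overlap. The mean rose from 71.7 ± 4.70 to 99.3 ± 3.57 RPKM (SD, n = 2 each), and the difference passed (limma log2 fold change 0.41 ± 0.07, adjusted p = 0.0167; 95% interval of the fold 1.17 to 1.51). It did not pass without knockdown replicate 1 (adjusted p = 0.153) or knockdown replicate 2 (0.111), with estimates of 0.36 and 0.42. The RPKM ratio of ERRFI1 to EGFR was 3.79 and 3.42 in wild-type and 5.28 and 4.85 in knockdown libraries.

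**Figure D4:**
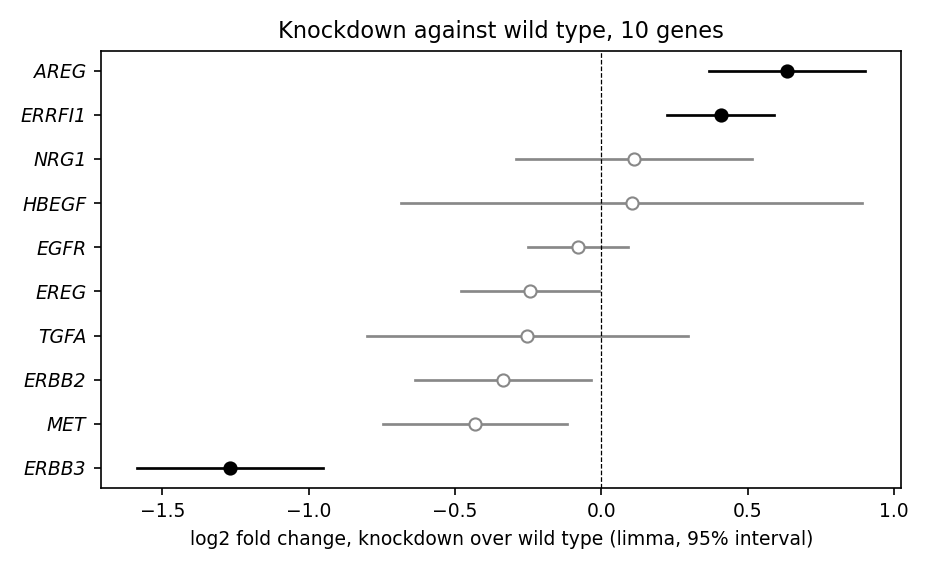
Log2 fold change of knockdown over wild type for the 10 genes, with limma's 95% intervals. Filled black points passed the adjusted threshold and open grey points did not. Among the genes that did not pass, the intervals of MET, ERBB2 and EREG exclude 0 before adjustment over all genes, and those of HBEGF and TGFA are the widest.

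For MET and EGFR, the genes with the most similar course over the 4 libraries were taken from 11481 other genes, by the root mean square (RMS) difference of centred log2 values. Nearest to MET were RHOBTB3 (RMS difference 0.00657), L3HYPDH (0.00808) and SLC25A28 (0.0109). RHOBTB3 was at 5.57 and 5.83 RPKM in wild-type and 4.39 and 4.36 RPKM in knockdown cells. The choice rested on these same values, so its log2 fold change of -0.44 is close to that of MET by selection. RHOBTB3 was called (limma adjusted p = 0.0268) and MET was not. RHOBTB3 passed in none of the 4 fits that left out 1 library (adjusted p from 0.0615 to 0.0995). Nearest to EGFR were PAF1 (0.00772), SNX25 (0.00945) and LCORL (0.0106), all with log2 fold changes between -0.08 and -0.06. Their closeness to EGFR likewise follows from the choice.

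The genes that act around the receptors were followed in 8 lists, drawn up with earlier results of these data known. Their counts stand against 11.1% higher and 13.8% lower among all tested genes (24.9% called in all). Because the lists were chosen in that way, a larger share cannot be read as a result about a list. The counts, and the shares of all genes beside them, depend on the test. Of all 20221 tested genes, limma-voom called 3278 higher and 3954 lower, in place of 2240 and 2792. Fits that left out 1 library also called fewer genes of all those tested. With limma-voom 7 higher and 1 lower were called in the RAS-ERK list, 9 and 1 in the endocytosis list, 2 and 3 in the PI3K list, 0 and 5 in the shedding list and 0 and 4 in the MET axis list. With no filter on low values, each list had fewer calls, from 0 to 5, and 1806 of all 39306 genes were called. Among the other ERBB ligands, EGF, the founding ligand of EGFR, fell from 1.63 and 1.74 RPKM to 0.745 and 0.639 RPKM (log2 fold change -1.23 ± 0.16, limma adjusted p = 0.00753). EGF was the only gene called of 3 tested. BTC (betacellulin) was at 0.926 to 1.21 RPKM and NRG4 at 1.13 to 1.80 RPKM, and neither passed. EPGN and NRG2 had at most 2 reads in any library.

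In the list of HGF and the MET axis, 2 of 11 tested genes were lower and 0 higher, with a median log2 fold change of -0.31. This is 18.2% called, below the 24.9% of all tested genes. PLXNB1, a semaphorin receptor that associates with MET, fell from 5.15 and 5.73 RPKM to 2.50 and 2.73 RPKM (log2 fold change -1.09 ± 0.12, limma adjusted p = 0.00571). CD44, whose variant forms act as MET co-receptors, fell from 37.1 and 43.6 RPKM to 30.5 and 29.7 RPKM (log2 fold change -0.48 ± 0.10, limma adjusted p = 0.0225). CD44 did not pass without knockdown replicate 1 or 2 (adjusted p = 0.0793 and 0.0820), and without either only PLXNB1 was called. Without wild-type replicate 1, 4 genes of the list were lower. HGF itself was at 0.0552 to 0.0977 RPKM, from 9 to 15 reads, so the ligand of MET was barely read in any library.

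Of 9 genes for shedding of ligands, 3 were lower and 0 higher (33.3% called, against 24.9% of all tested genes, median log2 fold change -0.23). The metalloproteases ADAM15, ADAM9 and ADAM10 fell. ADAM15 went from 46.3 and 46.5 RPKM to 27.1 and 27.7 RPKM (log2 fold change -0.82 ± 0.06, limma adjusted p = 0.00373) and ADAM9 from 69.7 and 74.2 RPKM to 51.7 and 47.9 RPKM (limma adjusted p = 0.00696). ADAM10 fell from 14.1 ± 1.40 to 9.99 ± 0.599 RPKM and did not pass without wild-type replicate 2, knockdown replicate 1 or knockdown replicate 2 (adjusted p = 0.0527, 0.0512 and 0.0686). ADAM17, the main sheddase of AREG, was at 12.7 and 13.0 RPKM in wild-type and at 12.0 and 11.0 RPKM in knockdown cells and did not pass (limma adjusted p = 0.0882).

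Inside the cell, 4 of 17 adaptors and RAS-ERK cascade genes were higher and 0 lower (median log2 fold change 0.15). The share called, 23.5%, is near the 24.9% of all tested genes. The adaptor SHC1 rose from 59.9 ± 3.68 to 89.5 ± 0.495 RPKM (log2 fold change 0.52 ± 0.07, limma adjusted p = 0.00789). SOS1, a RAS exchange factor, rose from 6.74 ± 0.570 to 11.5 ± 0.804 RPKM (0.70 ± 0.10, limma adjusted p = 0.00848). The kinases MAPK3 (ERK1) and MAP2K1 (MEK1) had log2 fold changes of 0.45 ± 0.09 and 0.29 ± 0.07 (limma adjusted p = 0.0226 and 0.0317). Without knockdown replicate 1 none of the 4 passed, without knockdown replicate 2 only SOS1 did, and without either wild-type library only SHC1 and SOS1 did. In the PI3K and AKT arm 1 of 12 genes was higher and 0 lower (8.33% called, median log2 fold change 0.08). That gene was AKT1, with a log2 fold change of 0.32 ± 0.08 (limma adjusted p = 0.0388), and it passed in none of the 4 fits that left out 1 library (adjusted p from 0.0833 to 0.219).

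Feedback inhibitors of receptor signalling moved in both directions, with 4 higher and 5 lower of 23 (39.1% called, against 24.9% of all tested genes, median log2 fold change 0.04). Without scaling between libraries, 5 were higher and 3 lower, so the balance of directions rests on the scaling. SOCS2, a suppressor of cytokine signalling, rose from 0.250 and 0.255 RPKM to 0.732 and 0.988 RPKM (log2 fold change 1.38 ± 0.21, limma adjusted p = 0.0111), from 31 to 77 reads. DUSP6, the ERK phosphatase, rose from 37.5 and 34.2 RPKM to 60.2 and 58.8 RPKM (0.67 ± 0.07, limma adjusted p = 0.00536). CBLB and DUSP5 were the other higher genes. PTPRJ, a receptor phosphatase, fell from 20.8 ± 1.24 to 13.5 ± 0.113 RPKM and LRIG3, of a family of transmembrane ERBB regulators, from 11.4 ± 0.939 to 7.34 ± 0.195 RPKM (limma adjusted p = 0.00619 and 0.00814). LRIG1, SPRY1 and SPRY4 were the other lower genes. SOCS2 did not pass without wild-type replicate 2 (adjusted p = 0.0507). SPRY1 and SPRY4 passed in none of the 4 fits that left out 1 library, DUSP5 not without knockdown replicate 1 or 2, LRIG1 not without wild-type replicate 2 or knockdown replicate 1, and CBLB not without knockdown replicate 1. The counts were 4 higher and 3 lower without wild-type replicate 1, 3 and 2 without wild-type replicate 2, 2 and 2 without knockdown replicate 1, and 3 and 3 without knockdown replicate 2. DUSP6 shares 40.5% of its exon length with a gene on the opposite strand, so its value is uncertain.

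In the list of receptor endocytosis and sorting, 4 of 17 genes were higher and 1 lower (29.4% called, against 24.9% of all tested genes, median log2 fold change 0.23). The count of higher genes rose to 7 without scaling between libraries or with the exon length trend removed, with 1 lower in each case. The recycling GTPase RAB11A rose from 12.4 ± 0.324 to 18.8 ± 0.653 RPKM (log2 fold change 0.54 ± 0.07, limma adjusted p = 0.00747), SH3KBP1, an adaptor of CBL, from 7.53 ± 0.126 to 11.4 ± 0.0517 RPKM (0.53 ± 0.08, adjusted p = 0.00934), and RAB5A, of early endosomes, by 0.41 ± 0.08 (adjusted p = 0.0194). The clathrin heavy chain CLTC fell from 59.1 ± 1.57 to 45.4 ± 1.27 RPKM (-0.44 ± 0.06, limma adjusted p = 0.00914). RAB7A was the other higher gene. Without knockdown replicate 1 none of the 17 passed, and without knockdown replicate 2 RAB11A alone did. RAB5A passed in none of the 4 fits that left out 1 library (adjusted p from 0.0554 to 0.132).

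Among ERK-responsive transcription factors and early genes, 5 of 11 were higher and 1 lower (54.5% called, against 24.9% of all tested genes, median log2 fold change 0.29). IER3, an early response gene, rose from 59.6 and 60.9 RPKM to 135 and 143 RPKM (log2 fold change 1.14 ± 0.07, limma adjusted p = 0.00309). FOSL1, an AP-1 subunit, rose from 15.7 and 13.2 RPKM to 27.7 and 29.3 RPKM, and MAFF, a small MAF factor, from 2.70 and 2.91 RPKM to 5.55 and 5.87 RPKM (limma adjusted p = 0.00554 and 0.00610). PHLDA1 rose from 50.1 ± 0.937 to 80.6 ± 0.985 RPKM (limma adjusted p = 0.00528), and ELK3 was the other higher gene. MYC was called lower (log2 fold change -0.25), and was called in none of the 4 fits that left out 1 library, nor without scaling between libraries (limma adjusted p = 0.102). The ETS factors ETV4 and ETV5 did not pass (-0.13 each). IER3 shares 26.5% of its exon length with a gene on the opposite strand, and PHLDA1 shares 9.65% and 6.85% with 2 such genes, so their values are uncertain too. Other named genes with such overlaps include NRG4 (38.1%), ADAM17 (24.1%), KRT18 (16.3%), LRIG1 (12.9%) and MAP2K1 (11.5% and 5.75%). SHC1 shares 7.72% with PYGO2 on the same strand and 7.51% with a gene on the opposite strand.

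**Figure D5:**
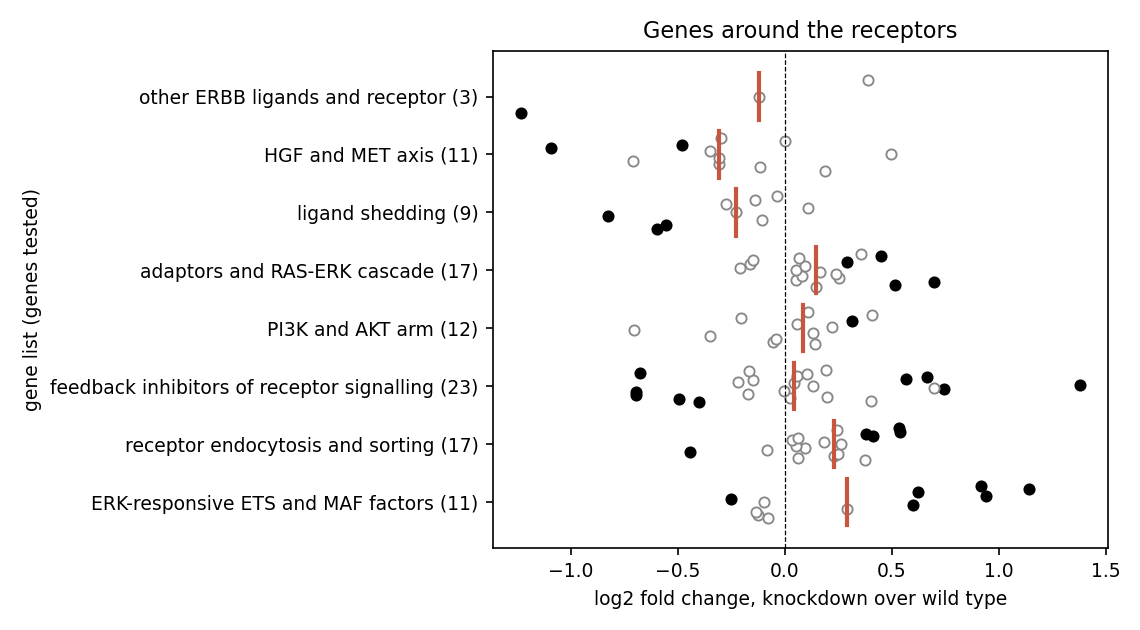
Log2 fold change of knockdown over wild type for the tested genes of the 8 lists, 1 point per gene (vertical position within a list has no meaning). Filled points passed the adjusted threshold, open points did not, and red bars are list medians. In the lists of ligand shedding and the MET axis every filled point is below 0, and in that of the RAS-ERK cascade every filled point is above 0.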

How the data were processed

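Per the labels' protocols, TRIzol total RNA was DNase-treated, depleted of ribosomal RNA, made into stranded libraries with molecular identifiers and sequenced paired-end. Per the submitters' processing notes, the tools included StringTie 1.3.2, edgeR 3.12.1, Subread 1.5.1, featureCounts and Trimmomatic 0.36. The sources used here give no aligner, identifier handling or strand setting. Those notes list mm9 as the build, but 99.6% of 26436 gene names found once in GENCODE 29 (GRCh38) lay on the same chromosome.

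The authors deposited 1 RPKM value per gene name and library. RPKM times exon length gave whole reads (within 0.01 read) for 100% of values. RPKM was divided by TMM factors (0.972 to 1.03, computed on those reads) and log2(RPKM + 0.1) entered limma 3.58.1 (R 4.3.3), with the trend of spread over expression, all 4 libraries, no covariate and Benjamini-Hochberg adjustment over all genes. On this scale the changes of low genes are understated. Printed RPKM are as deposited. Genes were tested if 2 libraries reached the equivalent of 10 reads at median depth and all 4 held 15 or more. Residual degrees of freedom were 2, and 3.56 were added by moderation. The steps were also run on simulated counts with the same spread in both groups. The spread of the replicates here differed between the groups, so that run does not test the error rate in these data. Replicates differed by more than read sampling (chi-square per gene 7.79 and 2.14). Counting limits cover sampling error only.

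The members and lists were chosen with earlier results of these data known. Named genes were the members, HNRNPM, up to 4 called genes per list by smallest adjusted p, and the 3 nearest courses to MET and EGFR among genes whose mean CPM reached 5 and whose symbol is no clone name. Genes of the Y chromosome were left out of the last choice, after the values were seen. Other genes named in a list complete a count or are known partners, and were chosen after their values were seen, as were the neighbours of MET and AREG. Alternatives were other scalings, pseudocounts of 1 and 0.01, no and a stricter filter, limma-voom, removal of the exon length trend, robust moderation, a replicate block and leaving out each library. Promoters were matched by symbol in the RefSeq table (GRCh38.p14), which held 8 of the 10 members.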

Additional observations from a re-analysis of the deposited data

How the results depend on the processing

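The 10 genes were refitted under 14 alternatives, of which HBEGF and TGFA could be fitted in 13. ERBB3 passed under all 14, AREG under 10, ERRFI1 under 11, MET under 4, and ERBB2 and EREG under 1 each. EGFR, HBEGF, TGFA and NRG1 passed under none. Every alternative kept the direction of the members except HBEGF in 2 of 13 and NRG1 in 1 of 14, none of them called. The 3 called members became 1 with no filter on low values, where 1806 genes were called in place of 5032, and 6 with limma-voom, where 7232 were. Without a filter 39306 genes were tested, and moderation added 1.85 degrees of freedom in place of 3.56. The cause of the change in calls was not tested. Leaving out 1 library gave 1 to 4 called members and 1832 to 3218 called genes. Of 724 refitted values of 52 other named genes, 614 kept their side of the threshold, 101 lost a call, 9 gained one and 0 called values turned their direction. Replicate numbers are shared between the groups, and same-numbered libraries deviated together only weakly (r = 0.063 across genes). With 2 libraries per group this cannot tell whether they shared a culture or day. With the replicate block 3 members and 5129 genes were called. HBEGF and TGFA rest on few reads, at most 44 and 37 per library.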

Other observations

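The chromosome 4 neighbourhood of AREG and EREG, looked at after their values had been seen, held 4 other protein-coding genes with starts within 400 kb of AREG, of which 3 were tested. CXCL2, a neutrophil chemokine gene, was at 2.37 RPKM in both wild-type libraries and at 4.25 and 4.52 RPKM in the knockdown libraries (log2 fold change 0.80 ± 0.11, limma adjusted p = 0.00855). It was the only one of the 3 that passed. MTHFD2L was at 0.632 to 0.930 RPKM, BTC at 0.926 to 1.21 RPKM, and EPGN had at most 2 reads per library.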
